A study of Mus musculus with 12 samples.

Results

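The 57 genes described here encode proteins that take a cell from G2 through mitosis to cytokinesis, and they were selected by name from the 25683 genes in each deposited count table. Their RNA was measured in J774.1 cells, a macrophage-like line from BALB/c mice, in 12 libraries of total RNA. The cells were WT or belonged to a line labelled rictor-KO or GATA3-KO, with 1 line named per knockout, so the knockout and the history of its line cannot be told apart. Each genotype was kept for 6 h with DMSO, the solvent (untreated cells), or with isorhamnetin, a methylated plant flavonol, at 10 µM (treated cells), which made 6 groups of 2 libraries. Rictor encodes a subunit that sets mTORC2 apart from the other mTOR kinase complex, and Gata3 a transcription factor of the T helper lineage, among others. Whether replicates are separate cultures is not stated in the labels, and p-values therefore refer to the spread between libraries, which may be technical.

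The genes fall into 9 groups by role. The CDK1 kinase module and its switches comprise Ccna2, Ccnb1, Ccnb2, Cdk1, Cks1b, Cks2, Cdc25b, Cdc25c, Plk1 and Aurka. Foxm1 and Mybl2 are transcription factors of the G2/M program, and Melk, a kinase, was placed with them. Mki67, Top2a, Smc2, Smc4, Ncapd2, Ncapg and Ncaph shape the chromosomes. Bub1, Bub1b, Bub3, Mad2l1, Ttk, Cdc20 and Ube2c belong to the spindle checkpoint and the anaphase-promoting complex, and Cenpa, Cenpe, Cenpf, Nuf2, Spc24 and Spc25 to the centromere and kinetochore. Aurkb, Birc5 and Incenp form most of the chromosomal passenger complex. The kinesins are Kif2c, Kif4, Kif11, Kif15, Kif18b, Kif20a, Kif20b, Kif22 and Kif23, and the spindle microtubule proteins are Tpx2, Tacc3, Hmmr, Nusap1, Ckap2, Ckap2l, Ckap5, Gtse1 and Dlgap5. Prc1, Anln and Ect2 act in cytokinesis.

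Cyclin-bound CDK1 drives entry into mitosis, condensins and topoisomerase II pack the chromosomes, and kinetochores attach them to the spindle. The spindle checkpoint holds back the anaphase-promoting complex until every chromosome is attached, after which cyclin B is destroyed and the cell divides. Most of these genes are transcribed in G2: in quiescent or early cycling cells the DREAM complex represses them through CHR and CCAAT promoter elements, and later B-Myb (Mybl2) and Foxm1 activate them. In an asynchronous culture, their summed RNA therefore follows how many cells are in G2 and mitosis as well as the RNA per cell, and these cannot be told apart in bulk libraries.

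Libraries held 35671457 to 53099804 exon reads, and single genes of the set held 790 to 39799 reads per library. Rictor mRNA with DMSO stood at 60.8 and 63.0 CPM (exon reads as a share of the library total, scaled with TMM) in untreated WT, at 34.3 and 31.2 CPM in Rictor-KO and at 36.2 and 32.3 CPM in GATA3-KO, and with isorhamnetin at 46.0 and 43.7, 23.0 and 23.9, and 28.5 and 27.6 CPM. It thus lay below WT in both knockout lines, which overlapped each other with DMSO but not with isorhamnetin. Gata3 mRNA with DMSO stood at 1.15 and 1.60 CPM in WT, 0.707 and 0.331 CPM in Rictor-KO and 0.282 and 0.292 CPM in GATA3-KO, and with isorhamnetin the knockout lines overlapped, all libraries lying between 0.418 and 0.908 CPM. All 12 macrophage markers examined passed the filter on low counts, although Fcgr3 was at most 0.41 CPM in the knockout lines. The summed level of the 12 was 11441 to 11659 CPM in WT with DMSO, 7339 to 7915 CPM in WT with isorhamnetin and 3064 to 5763 CPM in the knockout lines. Lyz2 (5438 and 5505 CPM) and Cd14 (2301 and 2495 CPM) made up most of it in WT with DMSO. With isorhamnetin in WT, 2 of the markers were higher and 5 lower, against 19.8% and 18.3% of all genes tested. Against WT with DMSO none was higher, and 8 were lower in Rictor-KO and 9 in GATA3-KO, against 20.7% and 27.1% of all genes lower. Markers of T cells (7 genes), fibroblasts (7) and epithelium (5) summed to at most 4.75, 0.662 and 0.05 CPM, with Cd3e, Col1a2 and Epcam at 0 in every library. The B cell gene Cd79b, named after its values were seen, was at 0 in all WT libraries, between 0.0745 and 1.01 CPM in Rictor-KO and between 0.59 and 1.43 CPM in GATA3-KO, and its part in the results was not tested. The Rictor-KO replicates stood apart from each other with either treatment, as in the macrophage gene Lyz2, at 2440.0 and 616 CPM with DMSO and 2450 and 788 CPM with isorhamnetin. GATA3-KO libraries had fewer mitochondrially encoded reads (0.456% to 0.61% of exon reads, against 0.854% to 1.23% in the others).

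As a set, the mitotic genes were lowest in WT cells given DMSO. They took 0.664% and 0.617% of exon reads in those libraries and 0.912% and 1.02% in WT with isorhamnetin. The untreated Rictor-KO libraries stood at 1.10% and 1.18% and the treated ones at 1.09% and 1.10%. For GATA3-KO the shares were 0.965% and 0.933% in untreated and 0.914% and 0.877% in treated libraries. Neither WT library with DMSO overlapped any of the other 10. Summed CPM were 7014 ± 370 (SD, n = 2) in WT with DMSO, 9472 ± 591 in WT with isorhamnetin and 11162 ± 687 in Rictor-KO with DMSO. Those sums were 10460 ± 176 in Rictor-KO with isorhamnetin, 9524 ± 167 in GATA3-KO with DMSO and 8872 ± 112 in GATA3-KO with isorhamnetin. For 40 of the 57 genes both WT libraries with DMSO were the 2 lowest of all 12, as they were for 14.9% of the 11808 genes tested. The macrophage marker sum given above was highest in the same libraries, mostly through Lyz2 and Cd14. With isorhamnetin in WT, Csf1r (1321 and 1210 to 1614 and 1686 CPM) and Mpeg1 (427 and 450 to 690 and 731 CPM) stood higher. Of the 12 markers, 4 had a log2 fold change above 0 in that comparison and 8 below 0. The part of these markers in the levels of the set was not tested. Per kilobase of exon, Cks1b (a CDK1-binding subunit) was the most abundant, with a mean RPKM (CPM per kilobase) of 147 over the 12 libraries, followed by Top2a at 133 and Ccnb1 at 111, while Cenpf was the least abundant at 10.0.

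**Figure D1:**
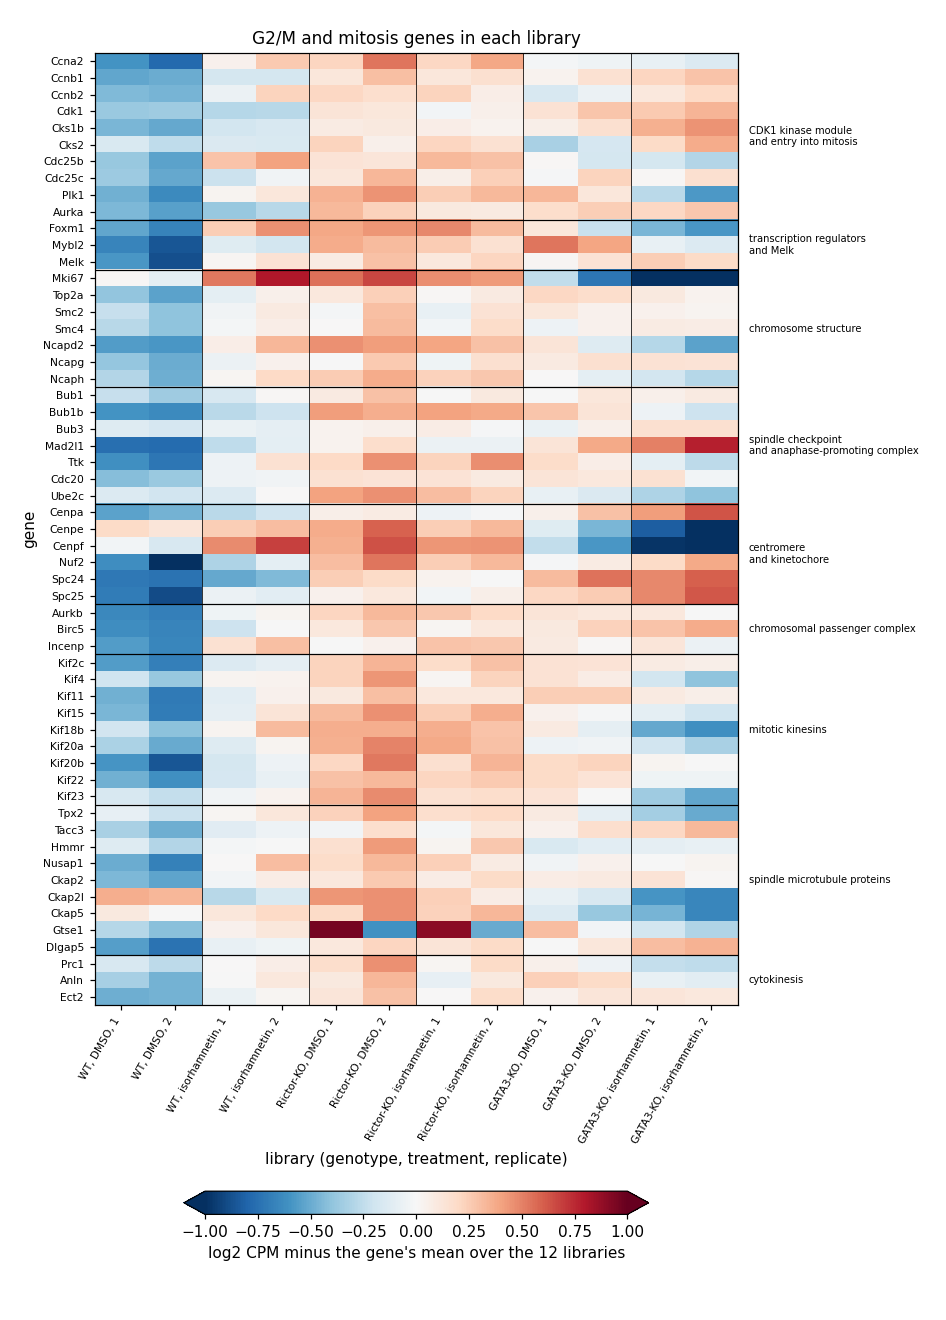
Log2 CPM of each of the 57 genes (rows, ordered by role) in each of the 12 libraries (columns), as the difference from that gene's mean over the 12 libraries; colours saturate at -1 and 1. Both WT libraries with DMSO are the 2 lowest for 40 genes, and the exceptions include Ckap2l, Mki67, Cenpe and Cenpf, which are lowest in GATA3-KO with isorhamnetin.

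What the genes share outside their role was examined in their promoters, because the elements through which DREAM, B-Myb and Foxm1 act lie there. RefSeq promoters (GRCm38.p6) matched 47 of the 57 genes, and the 250 bases before the start were searched on both strands. The CHR letters TTTGAA stood in 20 of 47 (42.6%), against 13.3% of the 9370 tested genes with a promoter, and the variant TTCGAA in 2 (4.26% against 2.25%). CCAAT, the letters bound by NF-Y, stood in 35 (74.5%, against 41.5%). A CHR of either spelling together with CCAAT was found in 19 (40.4%, against 6.27%). The E2F letters were searched as TTCCCGC, with the spellings TTCGCGC, also TTGCCGC, and last TTGGCGC, and stood in 8 (17.0%, against 16.3%); the last of these can overlap a CCAAT on the other strand. A pair of CCAAT boxes on the same strand with starts 31 to 34 bases apart, a spacing chosen after the letters were seen, stood in 7 (14.9%, against 1.89%). The 10 genes not matched were Aurkb, Ccna2, Cdc25c, Dlgap5, Foxm1, Incenp, Kif20a, Smc4, Spc24 and Tpx2.

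Of these promoters 8 are printed to show the patterns, each as the 150 bases before the start, 5′ to 3′ on the gene's strand, with the CHR letters TTTGAA (or TTCGAA) and the box CCAAT on either strand in capitals. Ccnb2, at chr9:70421555-70421704 (minus strand), Aurka, at chr2:172370571-172370720 (minus strand), and Spc25, at chr2:69206214-69206363 (minus strand), are shown for their paired CCAAT boxes, which begin at -87, -54 and -21 in Ccnb2, at -51 and -19 in Aurka and at -55 and -23 in Spc25. Ccnb2 also holds TTTGAA among the bases searched, but not among those printed.
Ccnb2: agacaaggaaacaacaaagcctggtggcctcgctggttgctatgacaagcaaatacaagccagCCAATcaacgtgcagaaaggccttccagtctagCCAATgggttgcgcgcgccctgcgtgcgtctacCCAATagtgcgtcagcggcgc
Aurka: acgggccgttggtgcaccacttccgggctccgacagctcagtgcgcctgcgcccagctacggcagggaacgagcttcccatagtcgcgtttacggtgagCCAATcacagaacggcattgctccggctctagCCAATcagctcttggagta
Spc25: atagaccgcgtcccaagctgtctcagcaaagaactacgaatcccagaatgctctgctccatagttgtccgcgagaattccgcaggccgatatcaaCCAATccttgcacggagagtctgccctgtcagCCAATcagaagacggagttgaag
Top2a, at chr11:99024190-99024339 (minus strand), Mki67, at chr7:135716380-135716529 (minus strand), and Ckap2l, at chr2:129297213-129297362 (minus strand), hold a CHR as well as CCAAT. The last of them is shown because its RNA moved against the rest of the set with isorhamnetin in WT.
Top2a: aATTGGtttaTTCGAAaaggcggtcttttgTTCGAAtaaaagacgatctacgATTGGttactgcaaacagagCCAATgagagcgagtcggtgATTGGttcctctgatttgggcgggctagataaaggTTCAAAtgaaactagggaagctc
Mki67: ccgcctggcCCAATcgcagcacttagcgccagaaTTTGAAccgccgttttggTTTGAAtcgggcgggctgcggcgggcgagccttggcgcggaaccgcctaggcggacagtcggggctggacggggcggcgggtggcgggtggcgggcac
Ckap2l: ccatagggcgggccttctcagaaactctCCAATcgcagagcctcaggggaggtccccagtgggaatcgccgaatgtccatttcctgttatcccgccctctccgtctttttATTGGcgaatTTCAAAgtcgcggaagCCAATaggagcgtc
Plk1, at chr7:122159285-122159434 (plus strand), holds CCAAT without TTTGAA or TTCGAA, the only CHR spellings searched. Mybl2, at chr2:163054485-163054634 (plus strand), holds none of these letters, although both genes were among those with the smallest p-values below.
Plk1: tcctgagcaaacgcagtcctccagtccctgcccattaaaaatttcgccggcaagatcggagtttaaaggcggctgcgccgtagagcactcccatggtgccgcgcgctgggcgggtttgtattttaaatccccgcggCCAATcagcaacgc
Mybl2: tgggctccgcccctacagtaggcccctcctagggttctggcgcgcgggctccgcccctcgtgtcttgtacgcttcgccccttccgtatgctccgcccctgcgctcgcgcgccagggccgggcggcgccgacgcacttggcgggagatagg
Median fold changes were compared between promoters with and without both letters. With isorhamnetin in WT, the median log2 fold change was 0.38 over the 19 genes with a CHR and CCAAT and 0.50 over the other 28 with a promoter, and for Rictor-KO against WT the medians were 0.59 and 0.72. For isorhamnetin in Rictor-KO they were -0.09 and -0.10, and for isorhamnetin in GATA3-KO -0.12 and -0.11. These medians are a description, and a match of letters is not a bound site.

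Isorhamnetin raised most of the set in WT cells. At an adjusted p under 0.05 (edgeR's quasi-likelihood test, Benjamini-Hochberg over 11808 genes), 42 of the 57 rose and 1 fell, while 19.8% of all genes tested rose and 18.3% fell. The median log2 fold change was 0.44 over the set, a 1.36-fold rise, and 0.01 over all genes tested. Library values did not overlap between treatments for 56 genes higher with isorhamnetin and 1 lower, against 38.8% higher and 37.4% lower of all genes. Incenp, the scaffold of the chromosomal passenger complex, stood at 177 and 166 CPM with DMSO and 289 and 322 CPM with isorhamnetin (log2 fold change 0.83, SE 0.09, adjusted p = 6.22e-06). Cdc25b, a phosphatase that activates CDK1, stood at 59.7 and 53.5 and then 94.3 and 102 CPM (log2 fold change 0.80, SE 0.09, adjusted p = 1.47e-05). Aurkb, the kinase of the passenger complex, stood at 81.5 and 79.5 and then 124 and 130.3 CPM (log2 fold change 0.66, SE 0.08, adjusted p = 2.18e-05). In each of these genes both treated libraries lay well above both controls, by far more than replicates differed. Foxm1 had the largest fold change of the set, from 85.2 and 76.9 to 145 and 168 CPM (log2 fold change 0.95, SE 0.12, adjusted p = 2.36e-05).

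Every member of 3 role groups rose in WT: the 7 chromosome structure genes (median log2 fold change 0.44), the 3 passenger complex genes (0.66) and Foxm1, Mybl2 and Melk (0.81). Of the 9 kinesins 8 rose (0.48), of the 6 centromere and kinetochore genes 5 (0.44), of the 10 genes of the CDK1 module 6 (0.32), and of the 7 checkpoint genes 4 (0.35). Of the 3 cytokinesis genes 2 rose (0.45), and of the 9 spindle microtubule proteins 4 rose and 1 fell (0.32). The 14 that did not pass were Cdk1, Cks2, Cdc25c, Aurka, Bub1, Bub3, Ube2c, Cenpe, Kif23, Tpx2, Hmmr, Ckap5, Gtse1 and Prc1, with log2 fold changes from 0.06 to 0.43. Of the 42 rises, 33 held in each of the 12 fits that left out 1 library. With plain library totals in place of TMM the median of all genes moved up by 0.16, and 52 of the set rose and 1 fell. That scaling also changed the split over all genes, from 2336 higher and 2157 lower to 3588 and 1257.

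**Figure D2:**
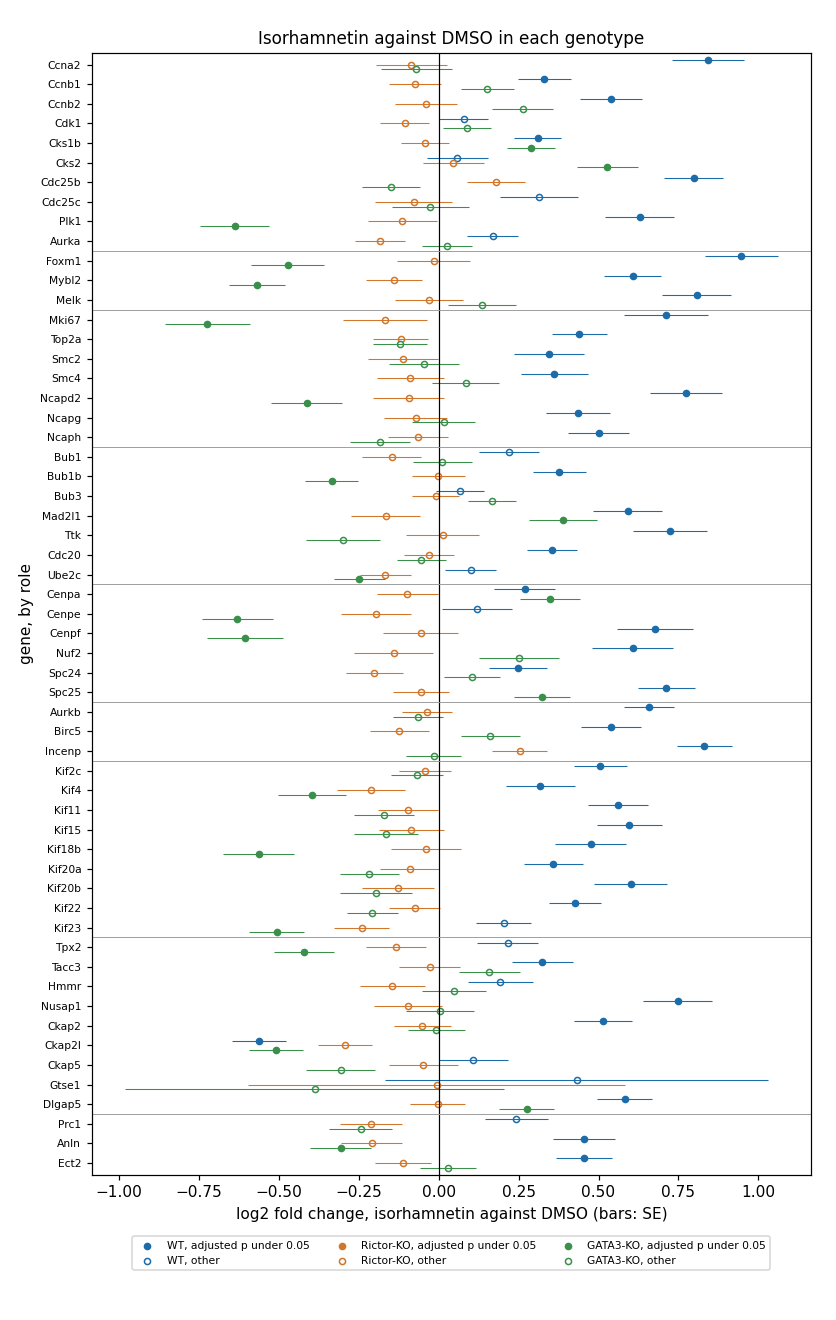
Log2 fold change of isorhamnetin against DMSO for each of the 57 genes (rows, by role) in WT, Rictor-KO and GATA3-KO, with bars of 1 standard error and filled points at an adjusted p under 0.05 (n = 2 libraries a group). WT points lie right of 0 for 56 genes, Rictor-KO points cluster at or just below 0, and GATA3-KO points spread to both sides.

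With DMSO, both knockout lines carried more of these mRNAs than WT. In Rictor-KO 53 of the 57 were higher and none lower, while 19.3% of all genes tested were higher and 20.7% lower; the 4 not called were Bub3, Ckap2l, Ckap5 and Gtse1. The median log2 fold change was 0.66 (1.58-fold), against -0.01 over all genes, and by library values 56 genes were higher without overlap and none lower, against 34.1% and 36.9% of all genes. In GATA3-KO 45 were higher and 5 lower, while 26.8% of all genes were higher and 27.1% lower, with a median of 0.57 (1.49-fold) against 0.01, and 48 were higher and 5 lower without overlap, against 40% and 39.3% of all genes. Mybl2, at 85.4 and 74.6 CPM in WT, stood at 175 and 168 CPM in the Rictor-KO line (log2 fold change 1.10, SE 0.09, adjusted p = 4.55e-07) and 196 and 177 CPM in GATA3-KO (log2 fold change 1.22, SE 0.09, adjusted p = 1.19e-07). Bub1b (the checkpoint kinase BubR1), at 211 and 205 CPM in WT, stood at 424 and 410.2 CPM in the Rictor-KO line (log2 fold change 1.00, SE 0.08, adjusted p = 5.69e-07) and 386 and 348 CPM in GATA3-KO (log2 fold change 0.82, SE 0.08, adjusted p = 2.19e-06). With DMSO, no library of either line reached down to the range of WT with DMSO for these genes. The WT libraries with DMSO serve in both of these comparisons and in the isorhamnetin comparison in WT, so a low value in them enters all 3. In the fits that left out 1 library, 50 of the 53 Rictor-KO calls and 35 of the 45 GATA3-KO calls held each time.

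**Figure D3:**
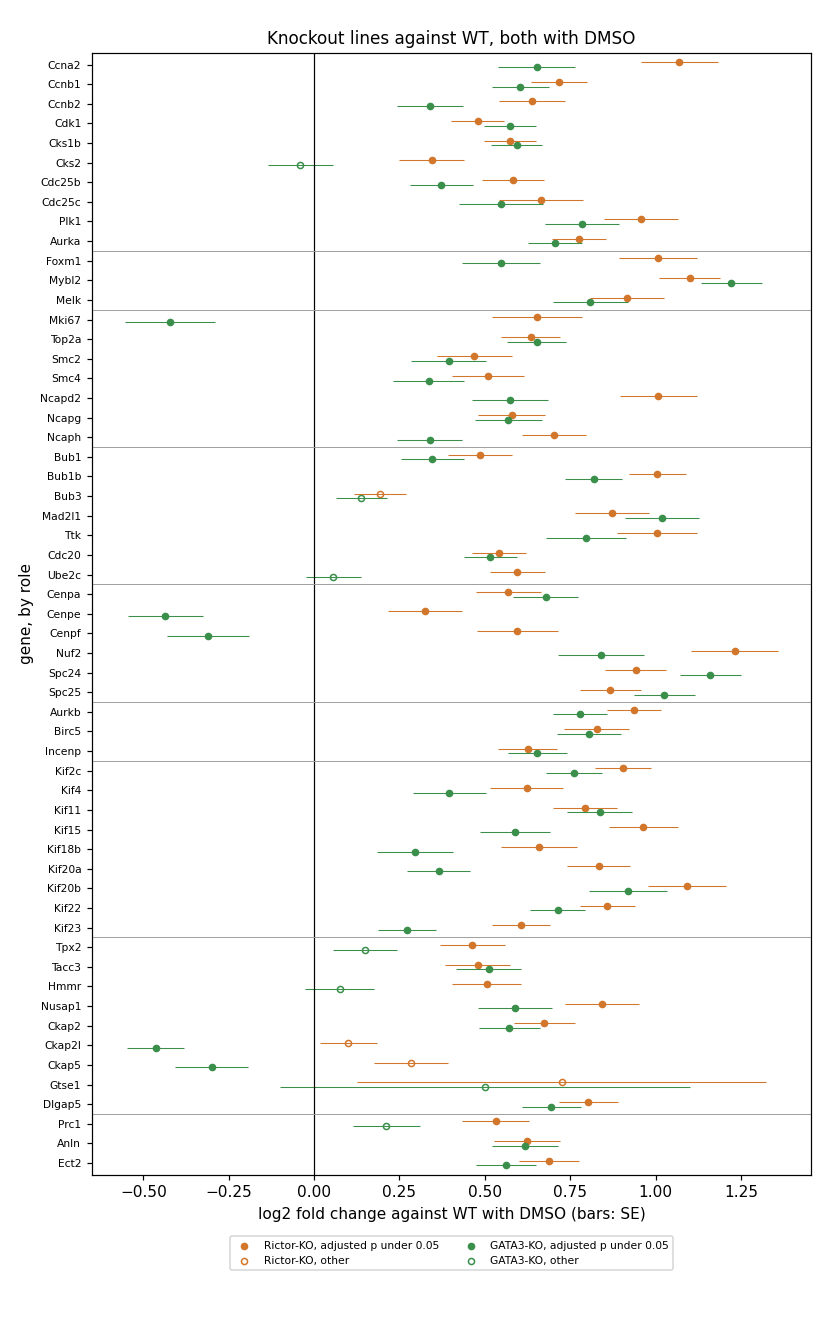
Log2 fold change of each knockout line against WT, both with DMSO, for each of the 57 genes (rows, by role), with bars of 1 standard error and filled points at an adjusted p under 0.05 (n = 2 libraries a group). Rictor-KO points lie right of 0 for all 57 genes, and 5 filled GATA3-KO points lie left of it.

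The 5 genes lower in GATA3-KO than in WT were Mki67, Cenpe, Cenpf, Ckap2l and Ckap5. Mki67, a coat protein of mitotic chromosomes used as a proliferation marker, stood at 528 and 489 CPM in WT and 442 and 317 CPM in GATA3-KO (log2 fold change -0.42, SE 0.13, adjusted p = 0.0155). Cenpe, the kinesin of the kinetochore, stood at 163 and 155 and 131 and 104 CPM (log2 fold change -0.44, SE 0.11, adjusted p = 0.00388). Cenpf, a large kinetochore protein, stood at 103 and 94.4 and 88.8 and 70.4 CPM (log2 fold change -0.31, SE 0.12, adjusted p = 0.0395). The second GATA3-KO replicate was the lower one in each of these genes. Ckap5, a microtubule polymerase (chTOG in humans), stood at 228 and 212 and 194 and 164 CPM (log2 fold change -0.30, SE 0.11, adjusted p = 0.0299). Ckap2l stood at 110.5 and 108 and 81.5 and 76.9 CPM (log2 fold change -0.46, SE 0.08, adjusted p = 0.000355), and only its call held in all 12 fits that left out 1 library. Without GATA3-KO DMSO replicate 2 the other 4 calls were lost, and Mki67, Ckap5 and Cenpf also lost theirs with plain library totals in place of TMM.

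In Rictor-KO, isorhamnetin changed none of the 57 genes at an adjusted p under 0.05 in edgeR, where 1.43% of all genes tested were higher and 0.483% lower. At an unadjusted p under 0.05 there were 7 of the set and 1616 of all 11808 genes tested. DESeq2 called 1 of the set (Ckap2l, lower), and 271 higher and 153 lower over all genes. A fit with the replicate number as a block called 9 of the set, and 672 higher and 745 lower over all genes. The median log2 fold change was -0.09, against -0.01 over all genes, and 53 of 57 values were below 0. The 95% intervals of the log2 fold changes of the genes other than Gtse1 lay between -0.47 and 0.44, which bounds the changes that 2 libraries a group allow. Ckap2l had the smallest p, at 116 and 118 CPM with DMSO and 101 and 90.1 CPM with isorhamnetin (log2 fold change -0.29, SE 0.08, adjusted p = 0.11, 95% interval -0.47 to -0.11). Incenp came next, at 261 and 269 and 317 and 314 CPM (log2 fold change 0.25, SE 0.09, adjusted p = 0.191). Kif23 stood at 227 and 249 and 199 and 203 CPM (log2 fold change -0.24, SE 0.09, adjusted p = 0.212). Library values did not overlap in these genes, which was so for 2 genes of the set in the higher and 18 in the lower direction, against 20.1% and 20.4% of all genes.

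In GATA3-KO, 36 of the 57 genes did not pass the test for isorhamnetin, 15 fell and 6 rose. Cks1b, Cks2, Mad2l1, Cenpa, Spc25 and Dlgap5 rose, and Plk1, Foxm1, Mybl2, Mki67, Ncapd2, Bub1b, Ube2c, Cenpe, Cenpf, Kif4, Kif18b, Kif23, Tpx2, Ckap2l and Anln fell. Over all genes tested 10.2% rose and 15.9% fell, so the share of the set that rose was at the background, and the median log2 fold change was -0.07, against 0.00. Ckap2l stood at 81.5 and 76.9 CPM with DMSO and 56.9 and 54.4 CPM with isorhamnetin (log2 fold change -0.51, SE 0.08, adjusted p = 0.00141). Mybl2 stood at 196 and 177 and 129 and 123 CPM (log2 fold change -0.57, SE 0.09, adjusted p = 0.00102). Plk1, the polo-like kinase that triggers mitotic entry and spindle assembly, stood at 154 and 132 and 101 and 82.3 CPM (log2 fold change -0.64, SE 0.11, adjusted p = 0.00152). For these genes both treated libraries lay below both controls. Cks2, the other CDK1-binding subunit, stood at 47.1 and 52.4 and 67.4 and 76.2 CPM (log2 fold change 0.53, SE 0.09, adjusted p = 0.00207), and Mad2l1, the checkpoint protein that inhibits Cdc20, stood at 132 and 157 and 171 and 207 CPM (log2 fold change 0.39, SE 0.11, adjusted p = 0.0167). The counts rested on single libraries: they were 1 higher and 6 lower without GATA3-KO DMSO replicate 1, and 1 higher and 5 lower without GATA3-KO isorhamnetin replicate 2. Cks2, Plk1, Mybl2, Kif23, Cenpe and Ckap2l kept their call in all 12 fits that left out 1 library.

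Exon length went with the direction in GATA3-KO. The 6 genes that rose had a median exon length of 1706 bases (692 to 8032), the 15 that fell 4365 bases (2199 to 11346) and the other 36 had 3359 bases. Across genes, which are not independent, the isorhamnetin effect in GATA3-KO and exon length had a Spearman rho of -0.37 over the 57 genes and -0.30 over all 11808, whereas these were 0.11 and 0.05 in WT and -0.27 and 0.04 in Rictor-KO. Within the set, a negative rho was thus found in both knockout lines. GATA3-KO libraries also held more reads in genes under 1500 bases, 14.2% and 15.9% with DMSO and 16.8% and 18.3% with isorhamnetin, against 12.4% to 13.3% in the others. When a smooth trend with length was removed from each library, a step added after these values were seen, 5 genes rose and 15 fell in GATA3-KO: Cks1b, Spc25 and Anln lost their call, and Bub3 (higher) and Kif22 (lower) gained one. For GATA3-KO against WT with DMSO, rho was -0.191 over the 57 genes and -0.235 over all genes tested. In that comparison the same step left 44 genes higher and 2 lower in GATA3-KO. Mki67 (-0.06), Cenpe (-0.18), Cenpf (0.12) and Ckap5 (-0.12) then lost their call, Ckap2l kept it, and Cks2 was called lower (-0.41). The part of RNA quality or library preparation in this relation was not tested.

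**Figure D4:**
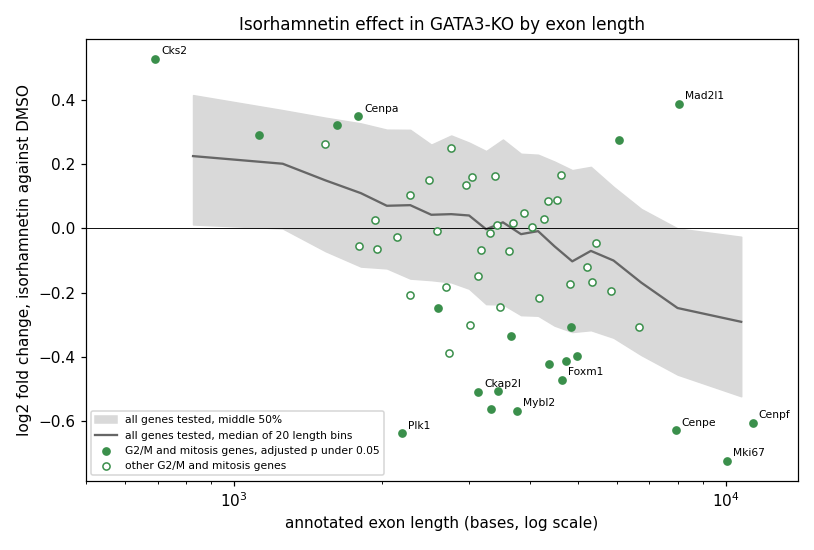
Log2 fold change of isorhamnetin against DMSO in GATA3-KO (vertical axis) against annotated exon length in bases (horizontal, log scale) for the 57 genes (points, filled at an adjusted p under 0.05); the line and the grey band are the median and the middle 50% of all 11808 genes tested, in 20 bins of length. The median of all genes falls with length, Cks2 (692 bases) lies above the band, and Plk1 (2199 bases) lies below it.

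The response to isorhamnetin differed from that of WT in both knockout lines by the interaction term of the same fit. In Rictor-KO it was lower for 41 of the 57 genes and higher for none, against 7.11% and 6.65% of all genes tested, with a median difference in log2 fold change of -0.53. In GATA3-KO it was lower for 36 and higher for 1, Cks2, against 15.5% and 12.4% of all genes, with a median of -0.56. The Cks2 call was lost with library totals in place of TMM and with the exon length trend removed. For Mybl2 the response was 0.61 in WT, -0.14 in Rictor-KO and -0.57 in GATA3-KO, with differences from WT of -0.75 (SE 0.12, adjusted p = 0.00139) and -1.18 (SE 0.12, adjusted p = 4.74e-05). Foxm1 differed from WT by -1.42 in GATA3-KO (SE 0.16, adjusted p = 7.47e-05) and Plk1 by -1.27 (SE 0.15, adjusted p = 9.7e-05). Aurkb differed by -0.69 in Rictor-KO (SE 0.11, adjusted p = 0.0011) and by -0.72 in GATA3-KO (adjusted p = 0.000472). In each of these the WT response was positive and the knockout response lay near or below 0. These differences use the same WT libraries as the comparisons above and are not separate evidence. The Rictor-KO count fell to 20 without WT DMSO replicate 2 and to 21 without WT isorhamnetin replicate 2, while 29 of the 36 lower GATA3-KO calls, but not that of Cks2, held in all 12 fits that left out 1 library. Between GATA3-KO and Rictor-KO the difference in response passed for none of the 57 genes at an adjusted p under 0.05 in edgeR. Nor did it pass for any gene tested (0% called). At an unadjusted p under 0.05 there were 22 of the set and 2711 of all 11808 genes tested. For that contrast DESeq2 called 11 of the set, and edgeR called 13 without GATA3-KO DMSO replicate 2 and 26 (11 higher, 15 lower) with the replicate number as a block. Over all genes, DESeq2 called 284 higher and 770 lower, and the fit with the block 1280 and 1895. A fit with no filter on low counts called 27 and 206, so the absence of calls depends on the fit.

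Between the knockout lines with DMSO, 20 of the 57 were lower in GATA3-KO and none higher, against 14.7% and 15.4% of all genes, with a median log2 fold change of -0.17 against 0.00. Mki67 had the smallest p, at 766 and 833 CPM in Rictor-KO against the GATA3-KO values above (log2 fold change -1.08, SE 0.13, adjusted p = 8.28e-05), followed by Cenpf at 134 and 164 CPM (log2 fold change -0.91, SE 0.12, adjusted p = 0.000106) and Cenpe at 184 and 214 CPM (log2 fold change -0.76, SE 0.11, adjusted p = 0.000205). Mki67, Cenpf and Cenpe are among the longest genes of the set. The log2 fold changes of this comparison and exon length had a Spearman rho of -0.23 over the 57 genes and -0.30 over all genes tested. When the exon length trend was removed, Mki67, Cenpf and Cenpe kept their call in this comparison. Of the 20 calls, 7 (Mki67, Cenpf, Cenpe, Ckap2l, Ckap5, Kif20a and Ube2c) held in all 12 fits that left out 1 library. The count was 9 without GATA3-KO DMSO replicate 2 and 10 without Rictor-KO DMSO replicate 2.

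Within the CDK1 module, Ccnb1 (cyclin B1) stood at 190.3 and 193 CPM in untreated WT and 241 and 241 CPM with isorhamnetin (log2 fold change 0.33, SE 0.08, adjusted p = 0.00602). Its levels with DMSO were 295 and 335 CPM in the Rictor-KO line (log2 fold change 0.72, SE 0.08, adjusted p = 1.13e-05) and 279 and 303 CPM in GATA3-KO (log2 fold change 0.60, SE 0.08, adjusted p = 3.13e-05), and with isorhamnetin 294 and 304 and 316 and 331 CPM. Ccnb1 was thus lowest in WT with DMSO and intermediate in treated WT. Cks1b rose in WT from 119 and 115 to 143 and 146 CPM (log2 fold change 0.31, SE 0.07, adjusted p = 0.00489), a call lost without WT DMSO replicate 2. It stood in Rictor-KO at 173 and 175 CPM with DMSO (log2 fold change 0.57, SE 0.07, adjusted p = 3.29e-05 against WT) and 170.5 and 167 CPM with isorhamnetin, and in GATA3-KO at 169.7 and 183 CPM (log2 fold change 0.59, SE 0.07, adjusted p = 1.52e-05 against WT) and 209 and 222 CPM. It was highest in the treated GATA3-KO libraries. Cks2 differed little between WT libraries, at 53 and 49.4 CPM with DMSO and 53.4 and 53.1 CPM with isorhamnetin (log2 fold change 0.06, SE 0.10, adjusted p = 0.678), and stood at 68.9 and 61 and 68.6 and 65.5 CPM in Rictor-KO. Its levels in GATA3-KO with DMSO overlapped those of WT. Plk1 stood at 87.5 and 78.5 CPM in untreated WT and 125 and 132 CPM with isorhamnetin (log2 fold change 0.63, SE 0.11, adjusted p = 0.000439). It stood in Rictor-KO at 155 and 167 CPM with DMSO (log2 fold change 0.96, SE 0.11, adjusted p = 9.81e-06) and 145 and 153 CPM with isorhamnetin. Cdc25b stood at 85.3 and 84.2 and 96.9 and 95.1 CPM in Rictor-KO with DMSO and with isorhamnetin, and at 78 and 68.5 and 68.7 and 63.4 CPM in GATA3-KO. The treated WT libraries were as high as treated Rictor-KO in Cdc25b, and GATA3-KO lay between those and untreated WT.

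Of the regulators, Mybl2 reached 124 and 119 CPM in WT with isorhamnetin (log2 fold change 0.61, SE 0.09, adjusted p = 0.000112) and stood at 161 and 149.8 CPM in treated Rictor-KO. Its highest libraries were those of GATA3-KO with DMSO. Foxm1, in contrast, was as high in treated WT as in Rictor-KO, where it stood at 159.8 and 166 CPM with DMSO (log2 fold change 1.01, SE 0.12, adjusted p = 1.03e-05) and 171 and 152 CPM with isorhamnetin. In GATA3-KO it fell from 132 and 105 to 89.2 and 81.7 CPM (log2 fold change -0.47, SE 0.11, adjusted p = 0.00926), a level that overlapped untreated WT. Melk rose in WT and was higher in both lines than in WT with DMSO (log2 fold changes 0.81, 0.92 and 0.81).

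**Figure D5:**
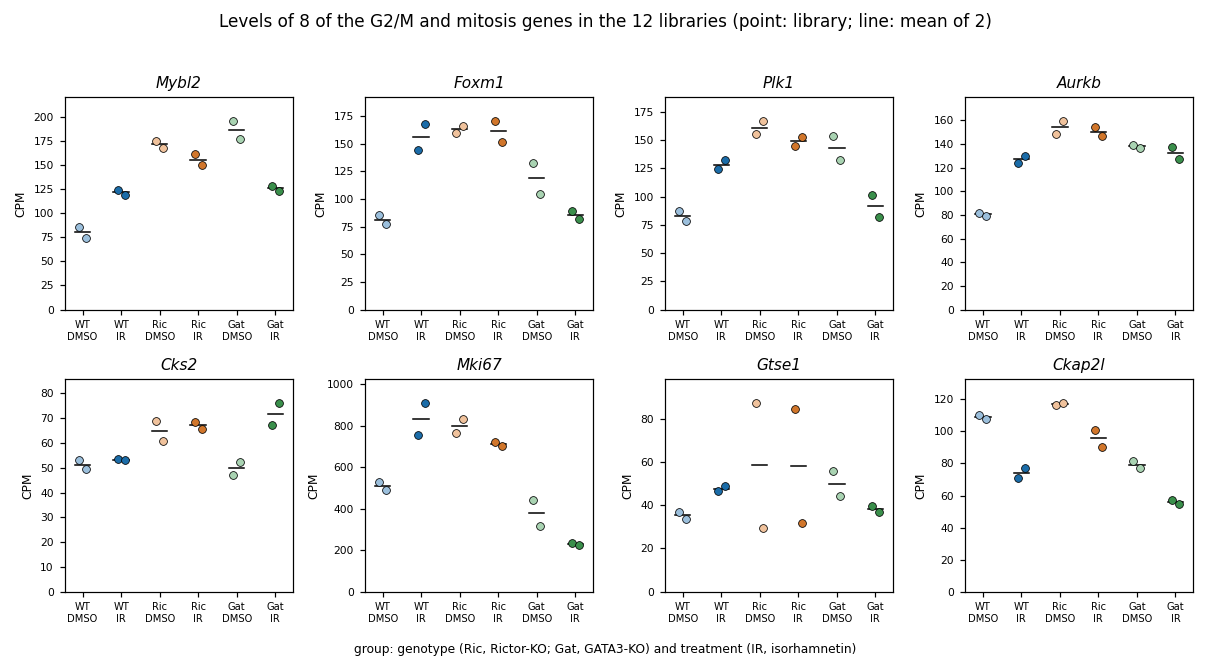
CPM (vertical axis, from 0) of 8 genes in the 12 libraries, by genotype and treatment (horizontal axis); points are libraries and lines are means of 2. Mybl2, Foxm1, Plk1 and Aurkb are lowest or near lowest in WT with DMSO and their paths in GATA3-KO differ; Cks2 is highest and Mki67 lowest in treated GATA3-KO; Gtse1 separates the Rictor-KO replicates; Ckap2l falls in treated WT.

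Among chromosome structure genes, Top2a (topoisomerase II alpha) stood at 521 and 473 CPM in untreated WT and 639 and 709 CPM with isorhamnetin (log2 fold change 0.44, SE 0.09, adjusted p = 0.00113). It stood at 735 and 808 CPM in Rictor-KO with DMSO (log2 fold change 0.63, SE 0.09, adjusted p = 4.72e-05) and 790.2 and 772 CPM in GATA3-KO (log2 fold change 0.65, SE 0.09, adjusted p = 2.28e-05), and with isorhamnetin at 691 and 729.8 and 734 and 702 CPM. All knockout libraries lay above untreated WT, and treated WT overlapped the lower of them. Smc4, a condensin core subunit, stood at 254 and 233 CPM and then 305 and 322 CPM in WT (log2 fold change 0.36, SE 0.10, adjusted p = 0.0139), and its call was lost without replicate 2 of either WT group. It stood at 309 and 384 and 303 and 349 CPM in Rictor-KO with DMSO and isorhamnetin, and at 298 and 317 and 327 and 325 CPM in GATA3-KO. Mki67 rose in WT to 754 and 911 CPM (log2 fold change 0.71, SE 0.13, adjusted p = 0.000919), the highest mean of any group. It stood at 721 and 703 CPM in treated Rictor-KO and fell in GATA3-KO to 237 and 223 CPM (log2 fold change -0.72, SE 0.13, adjusted p = 0.00259).

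In the checkpoint group, Cdc20, the activator of the anaphase-promoting complex, stood at 121 and 126 CPM in untreated WT and 157 and 158 CPM with isorhamnetin (log2 fold change 0.35, SE 0.08, adjusted p = 0.00257). It stood in Rictor-KO at 180.5 and 178 CPM with DMSO (log2 fold change 0.54, SE 0.08, adjusted p = 7.81e-05) and 179 and 173 CPM with isorhamnetin, and in GATA3-KO at 178 and 175 CPM (log2 fold change 0.52, SE 0.08, adjusted p = 7.33e-05) and 180.0 and 159.6 CPM. The knockout libraries overlapped each other and lay above all WT libraries in Cdc20. Bub1b rose in WT to 265 and 276 CPM (log2 fold change 0.38, SE 0.08, adjusted p = 0.00258), stood at 421 and 413 CPM in treated Rictor-KO and fell in GATA3-KO to 307 and 276 CPM (log2 fold change -0.33, SE 0.08, adjusted p = 0.0103). Mad2l1 stood at 71.6 and 70.8 and 102 and 113 CPM in WT without and with the compound (log2 fold change 0.59, SE 0.11, adjusted p = 0.000688) and at 124 and 137 and 116 and 116 CPM in Rictor-KO. Its highest libraries were those of treated GATA3-KO. Bub3 was among the steadiest of the set, with log2 fold changes of 0.07 for the compound in WT, 0.19 for Rictor-KO and 0.14 for GATA3-KO against WT.

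At the centromere and kinetochore, Cenpa, the centromeric histone H3 variant, stood at 109 and 114 CPM in untreated WT and 131 and 138 CPM with isorhamnetin (log2 fold change 0.27, SE 0.09, adjusted p = 0.0367), a call lost without any 1 of the 4 WT libraries. In Rictor-KO it stood at 164 and 167 CPM with DMSO (log2 fold change 0.57, SE 0.09, adjusted p = 0.00027) and 153 and 157 CPM with isorhamnetin, and in GATA3-KO at 163 and 194 CPM (log2 fold change 0.68, SE 0.09, adjusted p = 3.77e-05) and 211 and 244 CPM. Cenpa was highest in treated GATA3-KO. The Ndc80 complex, which binds microtubules at the kinetochore, is represented by Nuf2, Spc24 and Spc25. Nuf2 stood at 86 and 65.1 and then 107 and 123 CPM in WT (log2 fold change 0.61, SE 0.13, adjusted p = 0.00186), at 164 and 191 CPM in Rictor-KO with DMSO (log2 fold change 1.23, SE 0.13, adjusted p = 4.84e-06) and at 131 and 139.7 CPM in GATA3-KO (log2 fold change 0.84, SE 0.13, adjusted p = 7.92e-05). With isorhamnetin Nuf2 stood at 157 and 165 and 151 and 172 CPM in those lines. Nuf2 had the largest fold change of the set between Rictor-KO and WT. Spc24 stood at 47.9 and 47.2 and then 55 and 58 CPM in WT (log2 fold change 0.25, SE 0.09, adjusted p = 0.0429), at 93.1 and 89.5 and 80.4 and 78.4 CPM in Rictor-KO and at 97.9 and 115 and 109.6 and 119 CPM in GATA3-KO. The Spc24 call in WT was lost in 6 of the 12 fits that left out 1 library, and with DESeq2, DESeq2 size factors or no filter. Against WT with DMSO Spc24 was higher in both lines, with log2 fold changes of 0.94 (SE 0.09, adjusted p = 2.23e-06) and 1.16 (SE 0.09, adjusted p = 2.11e-07). Spc25 stood at 41 and 35.9 and then 64.1 and 61.8 CPM in WT (log2 fold change 0.71, SE 0.09, adjusted p = 3.25e-05), at 68.6 and 71.6 and 65.5 and 69.5 CPM in Rictor-KO and at 76.9 and 79.6 and 93.2 and 103 CPM in GATA3-KO. With DMSO both subunits were lowest in WT, and the GATA3-KO libraries lay above those of Rictor-KO, although neither gene passed the test between the knockout lines (adjusted p = 0.0764 and 0.195). Cenpe and Cenpf went the other way in treated GATA3-KO, to 80.5 and 71.5 CPM (log2 fold change -0.63, SE 0.11, adjusted p = 0.00183) and 53.4 and 51.2 CPM (log2 fold change -0.61, SE 0.12, adjusted p = 0.00339). In WT Cenpf rose to 147 and 169 CPM (log2 fold change 0.68, SE 0.12, adjusted p = 0.000514), while Cenpe stood at 169 and 177 CPM (log2 fold change 0.12, SE 0.11, adjusted p = 0.42). In treated Rictor-KO they stood at 143 and 144 and 169 and 178 CPM.

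In the passenger complex, Aurkb stood at 148 and 159.7 CPM in Rictor-KO with DMSO (log2 fold change 0.94, SE 0.08, adjusted p = 6.82e-07) and 154 and 147 CPM with isorhamnetin, and at 139 and 137 CPM (log2 fold change 0.78, SE 0.08, adjusted p = 2.22e-06) and 137 and 127 CPM in GATA3-KO. Incenp stood at 277 and 263 and 284 and 251 CPM in GATA3-KO and was higher than WT with DMSO in both lines (log2 differences of 0.63 for Rictor-KO and 0.65 for GATA3-KO, with SE 0.09 and 0.09 and adjusted p = 5.65e-05 and 2.37e-05). None of the 3 passenger genes passed the test for the compound in either knockout line, with log2 fold changes from -0.12 to 0.25.

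All 9 kinesins were higher in both knockout lines than in WT with DMSO, with median log2 fold changes of 0.83 and 0.59, and the response of all 9 was lower than in WT in both lines. The lower response held for every kinesin in GATA3-KO whichever library was left out. In Rictor-KO it did so only for Kif2c, Kif11 and Kif15. Kif20a, a kinesin of the central spindle, stood at 153 and 135 and then 174 and 195 CPM in WT (log2 fold change 0.36, SE 0.09, adjusted p = 0.00721) and at 244 and 269 CPM in Rictor-KO with DMSO (log2 fold change 0.83, SE 0.09, adjusted p = 7.97e-06). It stood at 184 and 186 CPM in GATA3-KO with DMSO (log2 fold change 0.37, SE 0.09, adjusted p = 0.00398), and with isorhamnetin at 249 and 233 and 167 and 152 CPM. Its call in WT was lost without replicate 2 of either WT group, and that of GATA3-KO against WT without WT DMSO replicate 2. With DMSO Kif20a in GATA3-KO lay between WT and Rictor-KO, and with isorhamnetin it lay below both. Kif23, the centralspindlin motor, stood at 160.5 and 152 and 176 and 184 CPM in WT (log2 fold change 0.20, SE 0.09, adjusted p = 0.0764), and in GATA3-KO it fell from 198 and 179.6 to 140.1 and 126 CPM (log2 fold change -0.51, SE 0.09, adjusted p = 0.00152). Treated GATA3-KO libraries were the lowest of all 12 in Kif23.

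Of the spindle microtubule proteins, Tpx2, which activates Aurora A and nucleates microtubules, stood at 234 and 213 and 251 and 267 CPM in WT (log2 fold change 0.22, SE 0.09, adjusted p = 0.089). It stood at 289.7 and 326 CPM in Rictor-KO with DMSO (log2 fold change 0.46, SE 0.09, adjusted p = 0.00136) and 277 and 284 CPM with isorhamnetin, and in GATA3-KO it fell from 263 and 232 to 195 and 174 CPM (log2 fold change -0.42, SE 0.09, adjusted p = 0.00633). Tacc3, a partner of Ckap5 on the spindle, stood at 122 and 109 and then 142 and 148 CPM in WT (log2 fold change 0.32, SE 0.09, adjusted p = 0.0147), at 150.1 and 172 and 151 and 165 CPM in Rictor-KO and at 157 and 172 and 177 and 191 CPM in GATA3-KO. The Tacc3 call in WT was lost without replicate 2 of either WT group. Treated GATA3-KO was lowest of the 6 groups for Tpx2 and highest for Tacc3. Ckap5 itself stood at 230.1 and 244 CPM in treated WT (log2 fold change 0.11, SE 0.11, adjusted p = 0.466), at 243 and 292 and 249.8 and 268 CPM in Rictor-KO and at 154 and 135 CPM in treated GATA3-KO (log2 fold change -0.31, SE 0.11, adjusted p = 0.0509). In cytokinesis, Anln (anillin, a scaffold of the contractile ring) stood at 203 and 184 and then 255 and 275 CPM in WT (log2 fold change 0.45, SE 0.10, adjusted p = 0.00202), at 274 and 322 and 242 and 274 CPM in Rictor-KO and at 302 and 291 and 243 and 237 CPM in GATA3-KO (log2 fold change -0.31, SE 0.10, adjusted p = 0.0315 for the compound). Prc1, which bundles midzone microtubules, stood at 134 and 125 and 149.7 and 157 CPM in WT (log2 fold change 0.24, SE 0.10, adjusted p = 0.0646), at 169 and 205 and 152 and 171 CPM in Rictor-KO and at 155 and 144 and 127 and 126 CPM in GATA3-KO. Prc1 values are less certain, since in at least 1 library 84.7% of its reads were unique, the only gene of the set under 90%.

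Ckap2l (cytoskeleton associated protein 2 like, ENSMUSG00000048327, chr2:129268210-129297212, minus strand, GRCm38), a mitotic spindle protein, was the only gene of the set that fell with isorhamnetin in WT. It stood at 110.5 and 108 CPM with DMSO and 70.8 and 77.2 CPM with isorhamnetin (log2 fold change -0.56, SE 0.08, adjusted p = 0.000142). This is the reverse of its paralogue Ckap2, which rose (log2 fold change 0.51, adjusted p = 0.000501), and Ckap2l was the 1 gene of the set whose response in Rictor-KO did not lie below that in WT (0.27, adjusted p = 0.157). The interleukin gene Il1a lies upstream on the same strand, 2398 bases from the start of Ckap2l, and its level dropped from 406 and 514 CPM with DMSO to 1.44 and 0.611 CPM with isorhamnetin in WT, and was at most 0.307 CPM in the knockouts. Intron reads made up 4.13% to 8.16% of the reads of Ckap2l and exon-exon reads 35.1% to 40.7% of its exon reads over the 12 libraries, with the WT groups at 4.55% and 5.08%, then 4.40% and 4.26%, in introns. In Rictor-KO with DMSO, where Il1a was at 0 and 0.102 CPM, Ckap2l stood as high as in untreated WT. Whether reads from Il1a transcripts enter its count was not tested.

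Gtse1, which stabilises spindle microtubules and restrains p53 in G2, is named because its replicates disagreed, and it was chosen after its values were seen. In Rictor-KO it stood at 87.4 and 29.6 CPM with DMSO and 84.6 and 31.8 CPM with isorhamnetin, so replicate 1 was high and replicate 2 low with either treatment. It stood at 37 and 33.8 and 46.5 and 48.9 CPM in WT without and with the compound, and at 55.8 and 44.4 and 39.7 and 36.7 CPM in GATA3-KO. None of its comparisons passed the edgeR test, and the standard error of 0.59 to 0.60 for its fold changes between groups was the largest of the set. That fit takes the spread of a gene over all groups, the Rictor-KO replicates included. In the authors' deposited tables, at a false discovery rate under 0.05, Gtse1 was higher with isorhamnetin in WT (log2 fold change 0.44) and lower in GATA3-KO (-0.37).

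Other genes of the same processes also rose in WT and were higher in the knockout lines with DMSO. Of 59 other mitotic genes, all tested, 44 rose and 2 fell with isorhamnetin in WT (median log2 fold change 0.54). Over all genes tested 19.8% rose and 18.3% fell there. None of the 59 passed in Rictor-KO (-0.06), against 1.43% higher and 0.483% lower of all genes. This list, too, was chosen with earlier results of these data known. In GATA3-KO 7 rose and 12 fell (-0.05), close to the 10.2% and 15.9% of all genes tested. Against WT with DMSO, 51 were higher and 1 lower in Rictor-KO (0.71) and 44 higher and 1 lower in GATA3-KO (0.56). Over all genes, 19.3% were higher and 20.7% lower in Rictor-KO, and 26.8% higher and 27.1% lower in GATA3-KO. The response of the 59 was lower than in WT for 37 and higher for 1 in Rictor-KO, against 7.11% and 6.65% of all genes. In GATA3-KO their response was lower for 37 and higher for 2, against 15.5% and 12.4%. Mastl, the Greatwall kinase that protects CDK1 substrates from PP2A, averaged 10.5 CPM in WT with DMSO and 25.9 CPM with isorhamnetin (log2 fold change 1.30, SE 0.15, adjusted p = 1.18e-05). Cenph, a kinetochore subunit, averaged 9.04 and 19.7 CPM (log2 fold change 1.12, SE 0.12, adjusted p = 6.78e-06). Ccnf, the cyclin of an SCF ubiquitin ligase, averaged 57.5 CPM in WT, 126 CPM in Rictor-KO and 184 CPM in GATA3-KO with DMSO (log2 fold change 1.14, SE 0.08, adjusted p = 1.9e-07 and log2 fold change 1.68, SE 0.08, adjusted p = 5.38e-09). Sgo1, the shugoshin that protects centromeric cohesion, averaged 22.1 CPM in WT and 77.0 CPM in GATA3-KO (log2 fold change 1.80, SE 0.11, adjusted p = 2.71e-08), with 43.6 CPM in Rictor-KO. With DMSO both Ccnf and Sgo1 were highest in GATA3-KO by these means.

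Genes of S phase were examined as well. Of 44 S phase genes 39 rose and none fell with isorhamnetin in WT (median 0.51), none passed in Rictor-KO (-0.06), and 8 rose and 10 fell in GATA3-KO (0.04), where 10.2% and 15.9% of all genes did. Against WT with DMSO, 44 were higher in Rictor-KO (0.68) and 40 in GATA3-KO (0.69), with none lower in either line. Of the 13 genes of the DREAM and MuvB complexes, 3 rose and none fell with the compound in WT (median 0.17), 6 were higher and 3 lower in Rictor-KO (0.33), and 5 were higher and 2 lower in GATA3-KO (0.29). The shares over all genes tested were 19.8% and 18.3%, 19.3% and 20.7%, and 26.8% and 27.1% in these comparisons, so the rises in WT were near the background. Rbl2, the pocket protein p130 of DREAM, was among those that rose in WT (log2 fold change 1.23, SE 0.12, adjusted p = 3.53e-06) and was higher in the Rictor-KO line (log2 fold change 1.22, SE 0.12, adjusted p = 2.86e-06) and in GATA3-KO (log2 fold change 1.20, SE 0.12, adjusted p = 1.95e-06).

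In the authors' deposited tables for isorhamnetin against DMSO, at a false discovery rate under 0.05, 48 of the 57 were higher and 1 lower in WT, none passed in Rictor-KO, and 4 were higher and 13 lower in GATA3-KO. Median log2 fold changes in the authors' deposited tables were 0.44, -0.08 and -0.05. Shares over all genes were not counted in those tables, so these counts have no background beside them.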

How the data were processed

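According to the labels' protocols, RNA was purified from the J774.1 cells with an RNeasy kit and libraries followed Illumina's standard protocols. The authors deposited counts of exon, intron, exon-exon and unique reads per gene for each library, on GRCm38 per the submitters' processing notes; the sources used here name no aligner or counter. Among values from 1 to 4 reads, 81.3% were even, so both mates of a pair appear to be counted. Fold changes (log2) and p-values with false discovery rates are in further tables deposited by the authors, whose test the sources used here do not give; they were only described.

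A single edgeR 4.0.16 (R 4.3.3) model took the exon reads of the 12 libraries and 1 mean for each of the 6 groups, with TMM factors of 0.912 and 0.913 for WT with DMSO and 0.992 to 1.05 for the others. Of 15156 genes with a read, 11808 passed filterByExpr, all 57 members among them. The robust quasi-likelihood F test had 6 residual degrees of freedom and prior ones of 8.08 at the median, with a common biological coefficient of variation of 0.11. Benjamini-Hochberg adjustment covered every gene tested, separately in each of 9 contrasts, with 0.05 as the threshold, and "rose", "fell", "higher" and "lower" of a gene refer to it. CPM use TMM-scaled library sizes; errors of fold changes are standard errors of the fit. The script recovered known changes in simulated counts. Library depth ranged from 35671457 to 53099804 exon reads, so counting error was small beside the spread between replicates, which were not identical.

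Alternatives were DESeq2 size factors, library totals, no filter, unique reads, DESeq2 1.42.0, only the libraries compared, a replicate block, each library left out, and, added after seeing the data, removal of an exon length trend. The members and the other gene lists were chosen with earlier results of these data known. Named members are the 2 most abundant per kilobase in each role group, the 3 with the smallest p in each contrast, and any of at most 5 called against the main direction; genes outside the set come from the lists, up to 3 per list and contrast. Promoters are from RefSeq (GRCm38.p6); 43 of the 47 matched genes have 1 start, and all starts were searched for the other 4. The B cell marker list is not reported here as a whole. Figures were drawn with matplotlib 3.10.9.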

Additional observations from a re-analysis of the deposited data

Results flagged for a closer look

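The response to isorhamnetin differed between cell lines by the interaction term of the edgeR fit, with n = 2 libraries a group. In Rictor-KO minus WT, 41 of the 57 genes had a lower response and none a higher one, against 7.11% and 6.65% of all genes tested, and the count fell to 20 without WT DMSO replicate 2. Among them Mybl2 differed by -0.75, Aurkb by -0.69 and Spc25 by -0.77 on the log2 scale. In each of these genes both treated WT libraries lay above both untreated ones.

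In GATA3-KO minus WT, 36 of the 57 genes had a lower response, against 15.5% of all genes tested. Mybl2 differed by -1.18, Foxm1 by -1.42 and Plk1 by -1.27, and in each of them the treated libraries lay above the untreated ones in WT and below them in GATA3-KO. Cks2 had the only higher response of the set, by 0.47, and that call was lost in 4 of the fits that left out 1 library. The Cks2 call was also lost in edgeR with library totals in place of TMM (adjusted p = 0.0794) and with the exon length trend removed (adjusted p = 0.285). Cks2 has 692 bases of exon. For this difference in response, log2 values and exon length had a Spearman rho of -0.346 over the set and -0.245 over all genes tested. The differences of both knockout lines from WT rest on the same 4 WT libraries.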

How the results depend on the processing

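Of 180 counts of called genes (9 comparisons, each under 8 other settings and without each of the 12 libraries), 169 stayed within 1.5 times the reported count. With isorhamnetin in Rictor-KO, DESeq2 called 1 gene of the set (lower) where edgeR called none, and 271 higher and 153 lower over all genes. For the response of GATA3-KO minus that of Rictor-KO, DESeq2 called 11 genes of the set (5 higher, 6 lower) where edgeR called none. Over all genes DESeq2 called 284 higher and 770 lower for that contrast. The cause was not tested in either case.

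A replicate block was fitted because groups share replicate numbers, although the labels do not say that a number pairs samples. It raised the call in Rictor-KO to 9 genes (1 higher, 8 lower), with 672 higher and 745 lower over all genes. It raised that of GATA3-KO minus Rictor-KO to 26 (11 higher, 15 lower), with 1280 and 1895 over all genes. It changed no other count by over 1.5 times. The deviations of replicate 1 with DMSO and with isorhamnetin correlated at -0.18 in WT, 0.80 in Rictor-KO and 0.69 in GATA3-KO over 7720 genes, a hint from the data and not the design.

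Leaving out each library in turn gave 34 to 45 called genes for isorhamnetin in WT, 0 in every run in Rictor-KO, and 6 to 24 in GATA3-KO. It gave 50 to 55 for Rictor-KO against WT, 38 to 51 for GATA3-KO against WT and 9 to 20 between the knockout lines. For the differences in response it gave 20 to 42 (Rictor-KO minus WT), 29 to 39 (GATA3-KO minus WT) and 0 to 13 (GATA3-KO minus Rictor-KO). Where an arm kept 1 library, it was assumed to vary like the other groups.

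With library totals in place of TMM, the median of all genes moved by 0.16 for isorhamnetin in WT, 0.16 and 0.13 for Rictor-KO and GATA3-KO against WT, and -0.12 and -0.14 for their responses minus that of WT. The members' counts were then 52 higher and 1 lower, 56 and 0, 48 and 2, 0 and 49, and 0 and 44. Removing the exon length trend reversed the sign of 2 fold changes of named genes that had a call with or without this step. Cenpf in GATA3-KO against WT became 0.12 (uncalled), and Cks1b in GATA3-KO against Rictor-KO became -0.25. Sign changes of genes called in neither fit were not counted. Counting each named gene once per contrast and setting, 171 lost and 127 gained a call with the same sign, and 4920 stayed called or stayed uncalled.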
